A study of Homo sapiens with 12 samples.

Results

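The serine/arginine-rich splicing factor (SRSF) genes and the heterogeneous nuclear ribonucleoprotein (hnRNP) genes were followed in 2 human T-cell acute lymphoblastic leukaemia lines. They were taken as the rows of the deposited expression table whose symbol is SRSF with a number or starts with HNRNP. This gave 37 of 25146 genes, 11 SRSF and 26 hnRNP genes, and 2 further genes that the naming rule covers were not analysed here. The libraries form 4 groups of 3: Molt-4 with chidamide, untreated Molt-4, Jurkat with chidamide and untreated Jurkat. Chidamide (tucidinostat) is a benzamide inhibitor of histone deacetylases and was given at 2 µM. The protocol gives 48 h, while the labels of treated replicates 1, 2 and 3 say 48, 49 and 50 h, which cannot be told apart from the replicate number. The labels carry the letters M and J, read as Molt-4 and Jurkat, the lines named in the growth protocol. Both are established cell lines, and no label states whether the 3 libraries of a group are separate cultures. The p-values therefore describe the spread between these libraries, which may be technical.

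SR proteins bind exonic enhancer sequences through RNA recognition motifs, and their arginine- and serine-rich domains help recruit the splicing machinery to nearby splice sites. hnRNP proteins coat nascent transcripts, and many of them bind silencer elements and oppose exon inclusion, so the balance between the families is known to set the use of alternative exons. Many genes of both families limit their own messenger RNA through exons that send the transcript to nonsense-mediated decay. The values used here are per gene and do not separate such transcripts from those that encode protein. In T cells these proteins are known for the alternative splicing of CD45.

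Levels are FPKM, fragments per length of transcript scaled to the mapped fragments of the library, so genes can be compared per length and each level is relative to the rest of its library. No read counts were given, so the depth behind the values is unknown. In bulk RNA, fewer cells of a kind and less RNA per cell cannot be told apart. Genes with at least 1 FPKM in at least 3 of the 12 libraries were tested, 13840 in all, of which 30 are members (10 SRSF and 20 hnRNP genes). A log2 change, printed ± SE, is the difference between group means of log2(FPKM + 1), a scale on which low genes change less than their ratio, and "called" means an adjusted p under 0.05 in limma over all genes tested. Library totals lay between 698435 and 869059 FPKM, and Pearson's r across genes was 0.989 to 0.995 for pairs of replicates. Untreated Jurkat replicate 3 stood apart: the SD of its log2 ratios to replicates 1 and 2 reached 0.332 and 0.337, where the remaining pairs of replicates gave 0.233 to 0.269. The T-lineage markers were at a mean of at least 1 FPKM for 10 of 10 genes in both untreated groups and for 9 of 10 in both treated groups. They summed to between 708 and 741 FPKM in Molt-4 with chidamide and between 979 and 1073 FPKM untreated, and to between 1237 and 1299 FPKM in Jurkat with chidamide and between 2309.7 and 2372 FPKM untreated. The libraries labelled Molt-4 also carried the 4 erythroid markers HBB, HBA1, HBA2 and ALAS2, summing to between 2876 and 2938 FPKM with chidamide and between 1954 and 2052 FPKM untreated. They likewise carried all 5 epithelial markers, which summed to between 277 and 284 FPKM with chidamide and between 108 and 114 FPKM untreated. In untreated Jurkat none of these 9 markers reached a mean of 1 FPKM, and ALAS2 and EPCAM were listed at 0. In Jurkat with chidamide 3 of the 4 erythroid markers reached it, with sums between 6.96 and 79.6 FPKM, and none of the epithelial ones. Myeloid markers at that level were 3 of 6 in Molt-4 with chidamide (sums of 89.0 to 89.9 FPKM) and 1 of 6 in untreated Molt-4 (11.3 to 11.99 FPKM), and 2 of 6 in Jurkat with chidamide (1.51 to 4.66 FPKM) and 0 of 6 in untreated Jurkat (0.21 to 1.12 FPKM). B-lineage markers summed to between 18.6 and 23.4 FPKM in Molt-4 with chidamide and between 3.65 and 5.72 FPKM untreated, and to between 11.8 and 12.8 FPKM in Jurkat with chidamide and between 24.9 and 29.8 FPKM untreated. Fibroblast and endothelial markers summed to between 64.7 and 70.9 FPKM in Molt-4 with chidamide and between 16.1 and 22.1 FPKM untreated, and to between 82.3 and 86.3 FPKM in Jurkat with chidamide and between 76.2 and 86.4 FPKM untreated. The part of these markers in the results was not tested.

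The promoters of 3 members are printed because these genes stand for the patterns described below: HNRNPLL was higher with chidamide in both lines, HNRNPAB lower in both, and HNRNPH2 higher in Jurkat. The windows are 300 bases around the annotated gene start, from RefSeq (GRCh38.p14), matched by symbol, and 33 of the 37 members had such a window. Each is written 5′ to 3′ on the strand of its gene. Capitals mark 4 motifs wherever their letters stand on either strand. They are the CCAAT box by its letters CCAAT, the E-box by the letters CACGTG, the GC box by the letters GGGCGG and the TATA box by the letters TATAAA.
HNRNPLL, chr2:38602879-38603178, minus strand: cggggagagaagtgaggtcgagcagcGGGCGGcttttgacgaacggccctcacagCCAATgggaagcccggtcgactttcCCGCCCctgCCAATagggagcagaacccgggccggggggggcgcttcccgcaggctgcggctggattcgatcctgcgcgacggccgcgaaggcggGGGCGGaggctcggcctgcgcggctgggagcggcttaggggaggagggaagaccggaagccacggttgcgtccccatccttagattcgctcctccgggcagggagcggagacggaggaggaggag
HNRNPAB, chr5:178204283-178204582, plus strand: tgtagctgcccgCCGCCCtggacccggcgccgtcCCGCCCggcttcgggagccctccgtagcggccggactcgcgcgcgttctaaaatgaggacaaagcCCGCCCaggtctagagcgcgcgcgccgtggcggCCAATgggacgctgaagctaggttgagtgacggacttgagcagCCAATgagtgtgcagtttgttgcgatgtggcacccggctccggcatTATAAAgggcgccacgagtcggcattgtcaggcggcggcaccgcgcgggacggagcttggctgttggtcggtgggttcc
HNRNPH2, chrX:101407972-101408271, plus strand: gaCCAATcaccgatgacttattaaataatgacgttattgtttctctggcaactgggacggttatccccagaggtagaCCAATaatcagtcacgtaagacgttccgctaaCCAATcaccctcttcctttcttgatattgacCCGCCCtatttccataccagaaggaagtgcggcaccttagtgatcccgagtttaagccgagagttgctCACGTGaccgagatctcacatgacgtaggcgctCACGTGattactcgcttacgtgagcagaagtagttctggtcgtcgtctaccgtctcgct
The HNRNPLL window holds CCAAT at 2 places and GGGCGG at 3. The HNRNPAB window holds CCAAT at 2 places, GGGCGG at 3 and TATAAA at 1. The HNRNPH2 window holds CCAAT at 3 places, CACGTG at 2 and GGGCGG at 1. Some members have several starts, so 46 windows were searched, of which 50% held CCAAT, against 34.6% of all 35116 promoters. Windows of the same locus can overlap and hold the same letters, as for SRSF7, SRSF8, and HNRNPUL2 with HNRNPUL2-BSCL2. The 46 windows are therefore not independent. CACGTG was in 15.2% of the members' windows against 7.26% of all, GGGCGG in 58.7% against 45.0%, and TATAAA in 6 of the 46 windows against 11.5% of all promoters. None of these letters overlapped with another of the 4 in the printed windows. A match describes the letters in the window and says nothing about binding.

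The members differed widely in abundance. HNRNPA1, which binds exonic and intronic silencers, was the highest in every library, between 1703 and 3334 FPKM. HNRNPA2B1, its close relative known for sorting RNA, lay between 936 and 1344 FPKM, and HNRNPH1, which binds runs of guanines, between 675 and 1337 FPKM. The highest SRSF gene was SRSF3, the smallest SR protein, at between 526 and 790.5 FPKM. SRSF1, the founding member of the SR family, followed at between 301 and 551 FPKM. At the low end, SRSF8 stayed between 21.3 and 33.5 FPKM and the intronless HNRNPA1 relative HNRNPA1L2 between 4.72 and 7.64 FPKM. Of the 7 members that did not pass the filter, HNRNPCL1, HNRNPCL2, HNRNPCL3, HNRNPCL4 and HNRNPKP3 were listed at 0 in every library. SRSF12 reached 0.03 FPKM and HNRNPA1P33 reached 0.74 FPKM at most. All members together held between 1.44% and 1.52% of total FPKM in Molt-4 with chidamide, against 1.48% to 1.57% in untreated Molt-4. In Jurkat the share lay between 1.33% and 1.37% with chidamide, against 1.29% to 1.45% untreated. These ranges overlapped in both lines.

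**Figure D1:**
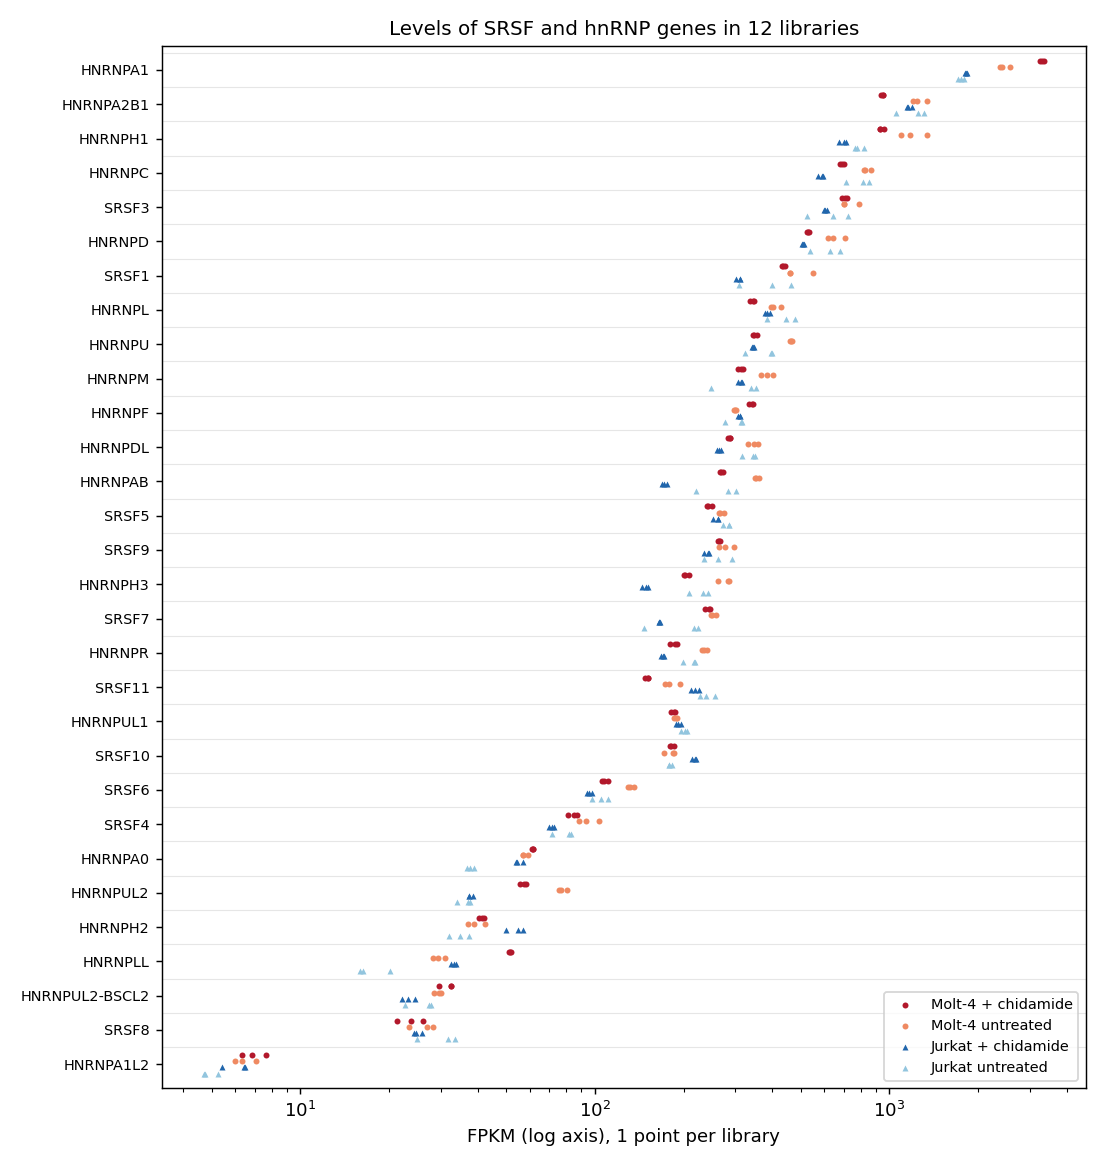
FPKM of the 30 tested members (rows, ordered by mean level) on a log axis, with 1 point for each of the 12 libraries and colours for the 4 groups. HNRNPA1 stands above every other member in each library, and HNRNPA1L2 below every other.

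The first comparison asked how the members changed with chidamide in Molt-4. More members fell than rose. Of the 30 tested, 15 fell and 3 rose, against 24.6% of all genes tested that fell and 35.4% that rose (60.0% called in either direction). The median log2 change was -0.17 over the members and 0.076 over all genes. Under quantile normalization the median over all genes moved to -0.082 and that over the members was -0.15, with 14 members lower and 4 higher, while all genes split into 3633 higher and 4861 lower in place of 4903 and 3401. The hnRNP genes made up most of the falls: 12 of 20 fell and 3 rose. Of the 10 SRSF genes, 3 fell and the other 7 did not pass the test. Under quantile normalization 2 SRSF genes fell, and their family median was -0.037, above the -0.082 over all genes. The treated and untreated libraries did not overlap for 18 members with chidamide lower (28.3% of all genes) and for 4 with chidamide higher (39.0% of all genes).

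HNRNPLL, which binds CD45 transcripts and represses their variable exons in activated T cells, rose most in Molt-4. It had 51.9, 51.6 and 51.1 FPKM with chidamide, against 28.2, 29.4 and 31.0 FPKM untreated. The groups lay far apart (log2 change 0.78 ± 0.080, limma adjusted p = 4.24e-06). HNRNPA1 had 3334, 3238 and 3307 FPKM with chidamide, against 2366, 2416 and 2569 FPKM untreated (log2 change 0.43 ± 0.043, limma adjusted p = 3.71e-06). The member with the highest level of all therefore rose as well, again with no overlap. HNRNPF, a guanine-run binder related to HNRNPH1, had 343, 334 and 342 FPKM with chidamide, against 299.2, 297 and 302 FPKM untreated. Its groups did not overlap, and the rise was small (log2 change 0.18 ± 0.050, limma adjusted p = 0.00696) and was not called under median-of-ratios scaling (adjusted p = 0.0597). HNRNPA1 has 74 pseudogenes named after it in GENCODE v29 and HNRNPC has 9, and how the authors' counting shared reads with such copies is not given in the sources used here.

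The largest falls in Molt-4 came from unlike hnRNP classes. The genes below were named because they fell most, so their similar size follows from that choice. Over all hnRNP genes called lower, the log2 change ran between -0.44 for HNRNPH3 and -0.25 for HNRNPL. HNRNPH3, a short relative of the guanine-run binders, had 202, 208 and 200.2 FPKM with chidamide, against 262, 285 and 283 FPKM untreated (log2 change -0.44 ± 0.057, limma adjusted p = 3.29e-05). HNRNPUL2, a nuclear protein that takes part in DNA end resection, had 55.7, 58.3 and 57.4 FPKM with chidamide, against 75.7, 76.9 and 80.4 FPKM untreated (log2 change -0.44 ± 0.052, limma adjusted p = 1.71e-05). Neither gene had an untreated library at or under a treated one. HNRNPA2B1 had 949, 952 and 936 FPKM with chidamide, against 1206, 1243 and 1344 FPKM untreated (log2 change -0.42 ± 0.071, limma adjusted p = 0.00029). The fall of HNRNPA2B1 thus stood beside a rise of HNRNPA1, its close relative. HNRNPU, a scaffold protein that binds both RNA and chromatin, had 355, 346 and 345 FPKM with chidamide, against 458, 462 and 465 FPKM untreated (log2 change -0.40 ± 0.067, limma adjusted p = 0.000238). HNRNPAB, a DNA- and RNA-binding relative of HNRNPD, had 267, 267 and 273 FPKM with chidamide, against 350.3, 351 and 362 FPKM untreated (log2 change -0.40 ± 0.087, limma adjusted p = 0.00184). In both genes every treated library lay under every untreated one. Leaving out untreated Jurkat replicate 3, which lends its spread to this fit, gave 16 lower and 3 higher members in Molt-4 and called 63.6% of all genes (26.4% lower and 37.2% higher).

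HNRNPC, which binds uridine tracts and packages nascent RNA, had 693, 678 and 699 FPKM with chidamide, against 822, 827 and 866 FPKM untreated in Molt-4 (log2 change -0.28 ± 0.059, limma adjusted p = 0.00146). It also fell with no overlap. The other hnRNP genes that fell were HNRNPD, HNRNPDL, HNRNPH1, HNRNPL, HNRNPM and HNRNPR, with log2 changes between -0.35 for HNRNPH1 and -0.25 for HNRNPL. HNRNPH1, for one, averaged 938 ± 15.5 FPKM with chidamide and 1202 ± 123.5 FPKM untreated (SD, n = 3 each). The call for HNRNPM was lost when replicate 2 or 3 of either Molt-4 group was left out, with adjusted p up to 0.078. Among SRSF genes, SRSF6 averaged 108 ± 2.56 FPKM with chidamide and 132 ± 3.08 FPKM untreated (log2 change -0.29 ± 0.050, limma adjusted p = 0.000358). SRSF11, an SR-related protein that binds U2AF, averaged 150.1 ± 1.95 FPKM with chidamide and 182 ± 11.3 FPKM untreated (log2 change -0.27 ± 0.056, limma adjusted p = 0.00104). SRSF5 averaged 244 ± 4.81 FPKM with chidamide and 268 ± 5.29 FPKM untreated (log2 change -0.14 ± 0.040, limma adjusted p = 0.0109) and was not called under quantile normalization. These are the 3 SRSF genes called lower. SRSF4 lay just outside the threshold (log2 change -0.17 ± 0.069, limma adjusted p = 0.0508). Its groups did not overlap, and it was called under 5 of the 19 alternatives. SRSF1 had 441, 432 and 436 FPKM with chidamide, against 459.5, 461 and 551 FPKM untreated (log2 change -0.16 ± 0.12, limma adjusted p = 0.249). SRSF3 had 719, 687 and 705 FPKM with chidamide, against 702, 699.7 and 790.5 FPKM untreated (log2 change -0.052 ± 0.092, limma adjusted p = 0.651). Neither passed the test, and the 95% intervals of their log2 changes ran between -0.42 and 0.092 for SRSF1 and between -0.25 and 0.15 for SRSF3.

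The same question in Jurkat depended on untreated replicate 3. With all 12 libraries, 10 of 30 members fell and 5 rose, against 25.4% of all genes that fell and 30.9% that rose (56.3% called in either direction). The median log2 change was -0.12 over the members and 0.037 over all genes. Without untreated replicate 3, 20 members fell and 5 rose, against 26.0% and 32.6% of all genes (58.5% in either direction). The medians were then -0.19 over the members and 0.053 over all genes. The number that fell was 6 without Jurkat chidamide replicate 3 and 6 without untreated Jurkat replicate 1. Under quantile normalization and under equal totals without the 7SL RNA genes, 6 members fell and 7 rose, with medians over the members of 0.0073 and -0.043. All genes split into 3709 higher and 3946 lower under quantile normalization and into 4845 and 2924 under equal totals, against 4277 and 3509 with all libraries as deposited. Median-of-ratios scaling gave 12 members lower and 4 higher, with 4053 of all genes higher and 3749 lower. The split of the Jurkat calls therefore turned with the scaling, while in Molt-4 more members fell than rose under each scaling. With all libraries, 8 of 20 hnRNP genes fell and 4 rose, and 2 of 10 SRSF genes fell and 1 rose. Without untreated replicate 3, 12 of 20 hnRNP and 8 of 10 SRSF genes fell.

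That library was lower than both other untreated Jurkat libraries for 21 of 30 members, against 32.0% of all genes tested. For 13 of these 21 it lay at or under the highest treated library, a count that was not made over all genes. The 13 include HNRNPH2, which rose, so that all its untreated libraries lay under the treated ones. The median log2 difference between replicate 3 and the mean of replicates 1 and 2 was -0.21 over the SRSF genes and -0.18 over the hnRNP genes, against 0.027 over all genes. The lowest ratios were 0.663 for SRSF7, 0.715 for SRSF1 and 0.715 for HNRNPM. The heat map of all members by library shows this library as the last column of untreated Jurkat.

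**Figure D2:**
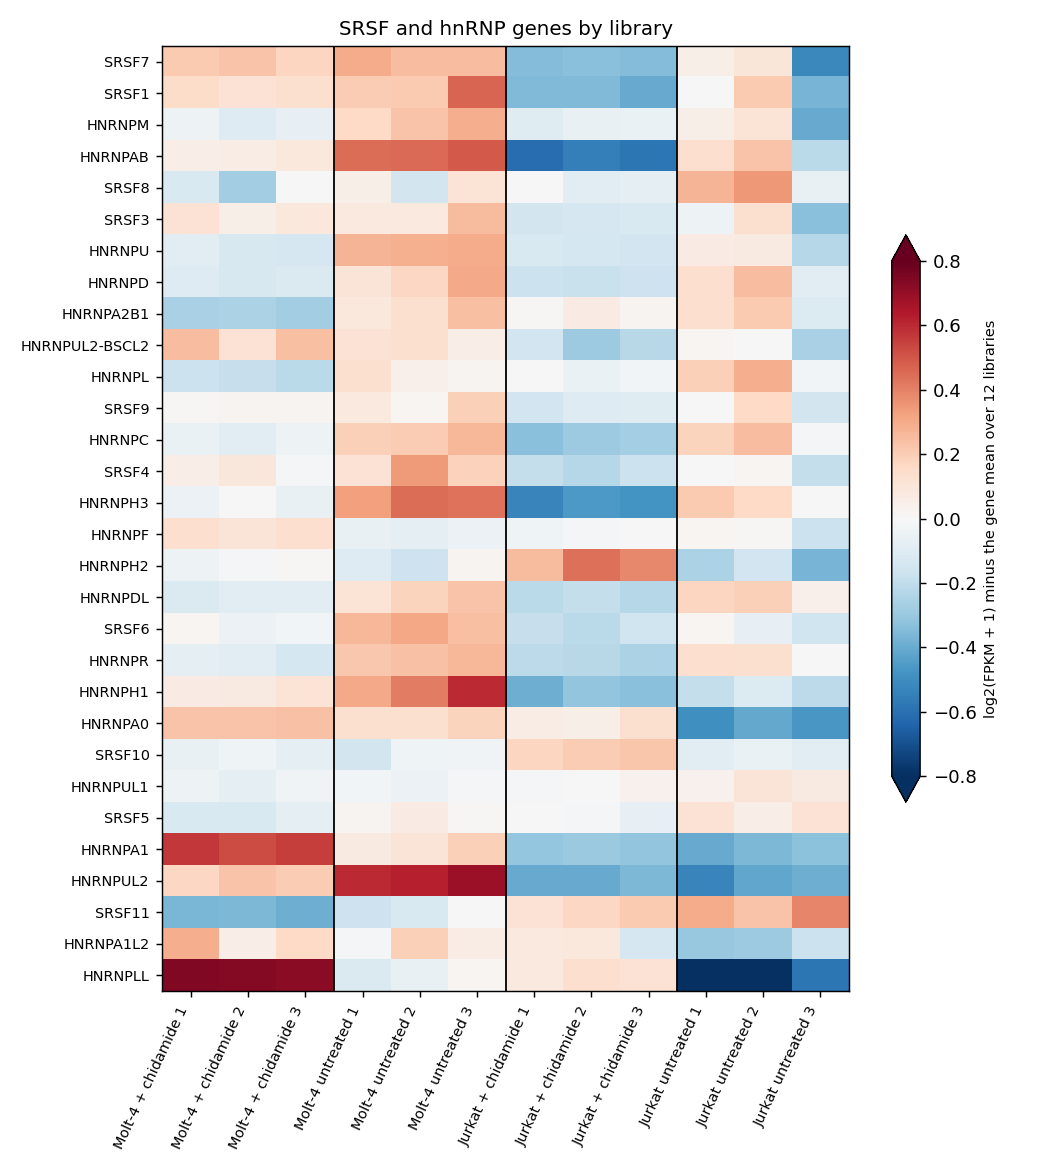
Level of each of the 30 tested members in each library, as log2(FPKM + 1) minus the gene's mean over the 12 libraries, with rows ordered by how low untreated Jurkat replicate 3 was against replicates 1 and 2. Red is above and blue below the mean; colours stop at 0.8, and the last column is lower than the 2 columns to its left for 21 members.

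The rises in Jurkat held with and without that library. HNRNPLL had 32.5, 33.7 and 33.3 FPKM with chidamide, against 16.3, 15.9 and 20.2 FPKM untreated (log2 change 0.90 ± 0.080, limma adjusted p = 1.66e-06). It was the largest rise in this line too, with no overlap, and was 1.00 on the log2 scale without untreated replicate 3. HNRNPH2, a near-identical relative of HNRNPH1 encoded on the X chromosome, had 50.0, 56.9 and 54.7 FPKM with chidamide, against 34.9, 37.5 and 32.0 FPKM untreated (log2 change 0.62 ± 0.073, limma adjusted p = 1.79e-05). HNRNPA0, the intronless member of the A/B class, had 54.4, 54.0 and 57.0 FPKM with chidamide, against 36.9, 39.0 and 37.6 FPKM untreated (log2 change 0.53 ± 0.046, limma adjusted p = 1.39e-06). Both rose with no overlap between the groups. HNRNPH2 shares an exon with the read-through gene RPL36A-HNRNPH2, and its reads may be split with those of HNRNPH1. SRSF10, an SR protein that represses splicing when it is dephosphorylated, had 213, 218 and 220.5 FPKM with chidamide, against 178, 182 and 179 FPKM untreated (log2 change 0.27 ± 0.042, limma adjusted p = 0.000162). It was the SRSF gene that rose. HNRNPA1L2 had 6.44, 6.48 and 5.43 FPKM with chidamide, against 4.72, 4.76 and 5.27 FPKM untreated, with no overlap. Its rise was close to the threshold (log2 change 0.26 ± 0.099, limma adjusted p = 0.0388) and was lost under 10 of the 19 alternatives, among them median-of-ratios scaling and quantile normalization. Its sequence is close to that of HNRNPA1, so reads may be shared between them.

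HNRNPAB fell most in Jurkat. It had 168, 176 and 171 FPKM with chidamide, against 283, 300.7 and 221 FPKM untreated (log2 change -0.63 ± 0.087, limma adjusted p = 6.68e-05). The groups did not overlap, and without untreated replicate 3 the change was -0.76. HNRNPH3 had 144, 152 and 149.7 FPKM with chidamide, against 241, 233 and 208 FPKM untreated (log2 change -0.61 ± 0.057, limma adjusted p = 2.53e-06). HNRNPC had 570.3, 588 and 595 FPKM with chidamide, against 815, 854 and 712 FPKM untreated (log2 change -0.44 ± 0.059, limma adjusted p = 5.69e-05). HNRNPDL, which like HNRNPD binds AU-rich elements, had 263, 267 and 260.5 FPKM with chidamide, against 345, 349 and 315 FPKM untreated (log2 change -0.35 ± 0.048, limma adjusted p = 6.73e-05). These 3 genes also fell with every treated library under every untreated one. HNRNPD and HNRNPR fell as well, with log2 changes of -0.27 and -0.32. HNRNPH1, HNRNPL and SRSF5 passed the test with log2 changes of -0.17, -0.18 and -0.12. The call was lost under 13 of the 19 alternatives for HNRNPL, 8 for HNRNPH1 and 4 for SRSF5, quantile normalization and equal totals without 7SL RNA among them for each, and SRSF5 changed sign under quantile normalization.

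SRSF1 had 312, 311 and 301 FPKM with chidamide, against 399, 462 and 308 FPKM untreated in Jurkat. The groups overlapped through untreated replicate 3, and the fall was near the threshold (log2 change -0.32 ± 0.12, limma adjusted p = 0.0351). It was lost under 10 of the 19 alternatives and was -0.48 without untreated replicate 3 (adjusted p = 0.000327). SRSF7, a zinc-knuckle SR protein, had 165, 166 and 165 FPKM with chidamide, against 217, 224 and 146 FPKM untreated. Its change was -0.22 ± 0.12 with all libraries (limma adjusted p = 0.14) and -0.42 without untreated replicate 3 (adjusted p = 2.04e-06). The call for SRSF7 therefore rests on whether that library is kept. SRSF3 had 599, 604 and 611 FPKM with chidamide, against 645, 725 and 526 FPKM untreated (log2 change -0.051 ± 0.092, limma adjusted p = 0.674, and -0.18 with adjusted p = 0.0258 without untreated replicate 3). HNRNPA2B1 had 1145, 1192 and 1155 FPKM with chidamide, against 1249.6, 1313 and 1056 FPKM untreated (log2 change -0.045 ± 0.071, limma adjusted p = 0.622, and -0.14 with adjusted p = 0.0223 without untreated replicate 3). In both genes the untreated libraries lay on either side of the treated ones. HNRNPA1 had 1821, 1835 and 1811 FPKM with chidamide, against 1703, 1753 and 1794 FPKM untreated. Its groups did not overlap, the change was 0.058 ± 0.043 (limma adjusted p = 0.27), and it was called higher under quantile normalization and under equal totals without 7SL RNA. In Jurkat 6 members had treated libraries above every untreated one (33.3% of all genes) and 10 had them below (27.4% of all genes).

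Set side by side, 9 genes fell in both lines: HNRNPAB, HNRNPC, HNRNPD, HNRNPDL, HNRNPH1, HNRNPH3, HNRNPL, HNRNPR and SRSF5, where 16.2% of all genes fell in both. These were 9 of the 15 that fell in Molt-4 and 9 of the 10 that fell in Jurkat. Of all genes, 3401 fell in Molt-4, 3509 in Jurkat and 2249 in both. The Jurkat calls of HNRNPH1, HNRNPL and SRSF5 were among those that alternatives lost. HNRNPLL rose in both, 1 of the 3 that rose in Molt-4 and 1 of the 5 in Jurkat, where 21.7% of all genes rose in both. Of all genes, 4903 rose in Molt-4, 4277 in Jurkat and 3007 in both. Without untreated Jurkat replicate 3, 14 genes fell in both lines, adding HNRNPA2B1, HNRNPM, HNRNPU, SRSF4 and SRSF6, and 1 rose in both (17.7% and 23.1% of all genes). With all libraries 7 members were called in neither line: HNRNPUL1, HNRNPUL2-BSCL2, SRSF3, SRSF4, SRSF7, SRSF8 and SRSF9. Without untreated Jurkat replicate 3, HNRNPUL1 was the 1 member called in neither. How many of all genes were called in neither line was not counted, so these counts cannot be set against such a share. With all libraries 60.0% of all genes were called in Molt-4 and 56.3% in Jurkat. Without that replicate the shares were 63.6% and 58.5%. A call in 1 line and not in the other does not show that the lines differ, which the next comparison tested.

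**Figure D3:**
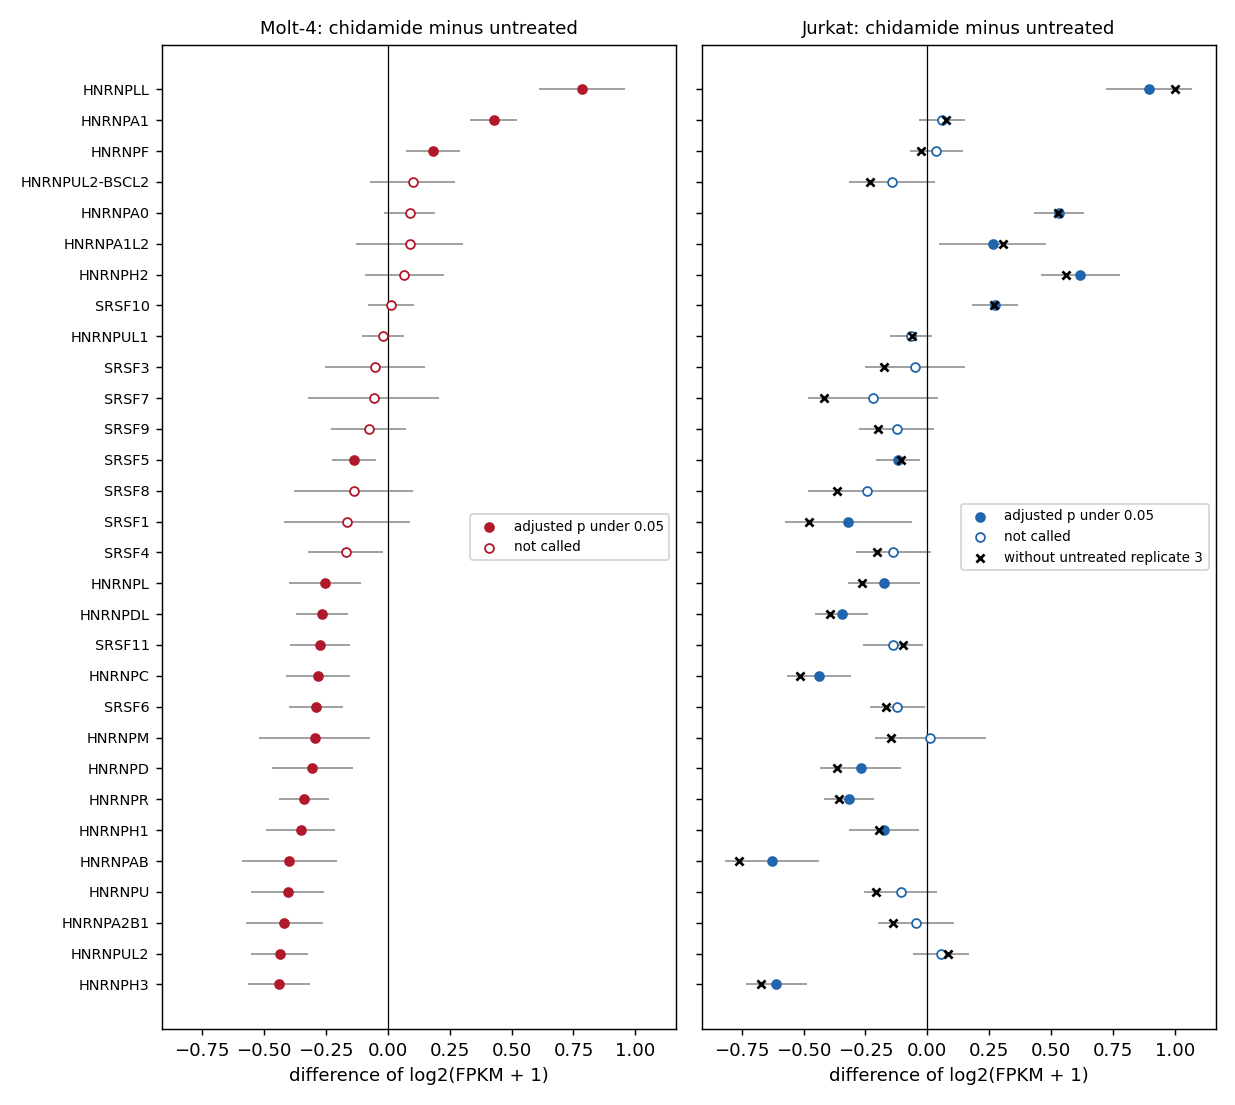
Difference of log2(FPKM + 1), chidamide minus untreated, for the 30 tested members in Molt-4 (left) and Jurkat (right), with 95% intervals as bars, filled points for an adjusted p under 0.05 and open points for the others. Crosses in the Jurkat panel give the value without untreated replicate 3, which lies left of the point for most members.

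The difference of the responses, Molt-4 minus Jurkat, was called for 7 members, 1 higher and 6 lower, against 19.8% of all genes higher and 12.1% lower (31.9% in either direction). Over all genes the split was 2745 higher and 1671 lower, and it was 2261 and 2655 under quantile normalization and 2266 and 2208 under equal totals without 7SL RNA. HNRNPA1 rose in Molt-4 and not detectably in Jurkat (difference 0.37 ± 0.061, limma adjusted p = 0.000662). HNRNPH2 was the reverse: it averaged 41.3 ± 0.741 FPKM with chidamide and 39.5 ± 2.7 FPKM untreated in Molt-4, and rose in Jurkat (difference -0.55 ± 0.10, limma adjusted p = 0.00165). HNRNPA0 averaged 61.5 ± 0.146 FPKM with chidamide and 57.8 ± 1.21 FPKM untreated in Molt-4, and also rose in Jurkat (difference -0.44 ± 0.066, limma adjusted p = 0.000308). SRSF10 averaged 182 ± 2.78 FPKM with chidamide and 180.3 ± 7.97 FPKM untreated in Molt-4, against a rise in Jurkat (difference -0.26 ± 0.060, limma adjusted p = 0.0062). So 3 of the Jurkat rises were larger than the changes of the same genes in Molt-4. HNRNPUL2 fell in Molt-4 and averaged 37.7 ± 0.722 FPKM with chidamide and 36.3 ± 1.86 FPKM untreated in Jurkat (difference -0.49 ± 0.074, limma adjusted p = 0.000347). HNRNPA2B1 fell in Molt-4 and, with all libraries, not detectably in Jurkat (difference -0.37 ± 0.10, limma adjusted p = 0.014, and -0.28 without untreated Jurkat replicate 3).

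HNRNPU also fell in Molt-4 and, with all libraries, not detectably in Jurkat (difference -0.30 ± 0.095, limma adjusted p = 0.0319). That call of a difference was lost in 8 of the 12 fits that left out 1 library, with adjusted p up to 0.0661. In Jurkat the log2 change of HNRNPU was -0.11 (limma adjusted p = 0.192), and -0.21 without untreated replicate 3 (adjusted p = 0.000139). HNRNPU and COX20, which encodes an assembly factor of cytochrome c oxidase, lie on opposite strands with an exon overlap of up to 2017 bases in GENCODE v29. COX20 averaged 47.8 ± 1.72 FPKM with chidamide and 23.8 ± 2.86 FPKM untreated in Jurkat (limma adjusted p = 2.05e-06), and 45.4 ± 1.78 FPKM with chidamide and 51.6 ± 5.3 FPKM untreated in Molt-4 (adjusted p = 0.107). The use of strand in counting is not given in the sources used here, so reads of the pair cannot be told apart. Shorter overlaps on opposite strands with genes of the expression table exist for SRSF9 with GATC, HNRNPA2B1 with CBX3, HNRNPAB with PHYKPL, HNRNPUL1 with TGFB1 and HNRNPH3 with RUFY2. Further members overlap genes without a row there, among them HNRNPM, HNRNPD and HNRNPL. SRSF1 shares up to 1051 bases with such a gene, AC015813.2, on the same strand. HNRNPUL2 shares up to 766 bases of an exon with the read-through gene HNRNPUL2-BSCL2 on the same strand. Leaving out untreated Jurkat replicate 3 gave 8 members higher and 7 lower in the difference, against 21.1% and 14.6% of all genes (35.7% in either direction). The 7 that were then added as higher were HNRNPAB, HNRNPC, HNRNPF, HNRNPH3, HNRNPUL2-BSCL2, SRSF1 and SRSF7, with differences between 0.21 and 0.36. HNRNPLL was then lower (difference -0.22, limma adjusted p = 0.0357), and -0.11 with adjusted p = 0.497 with all libraries.

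**Figure D4:**
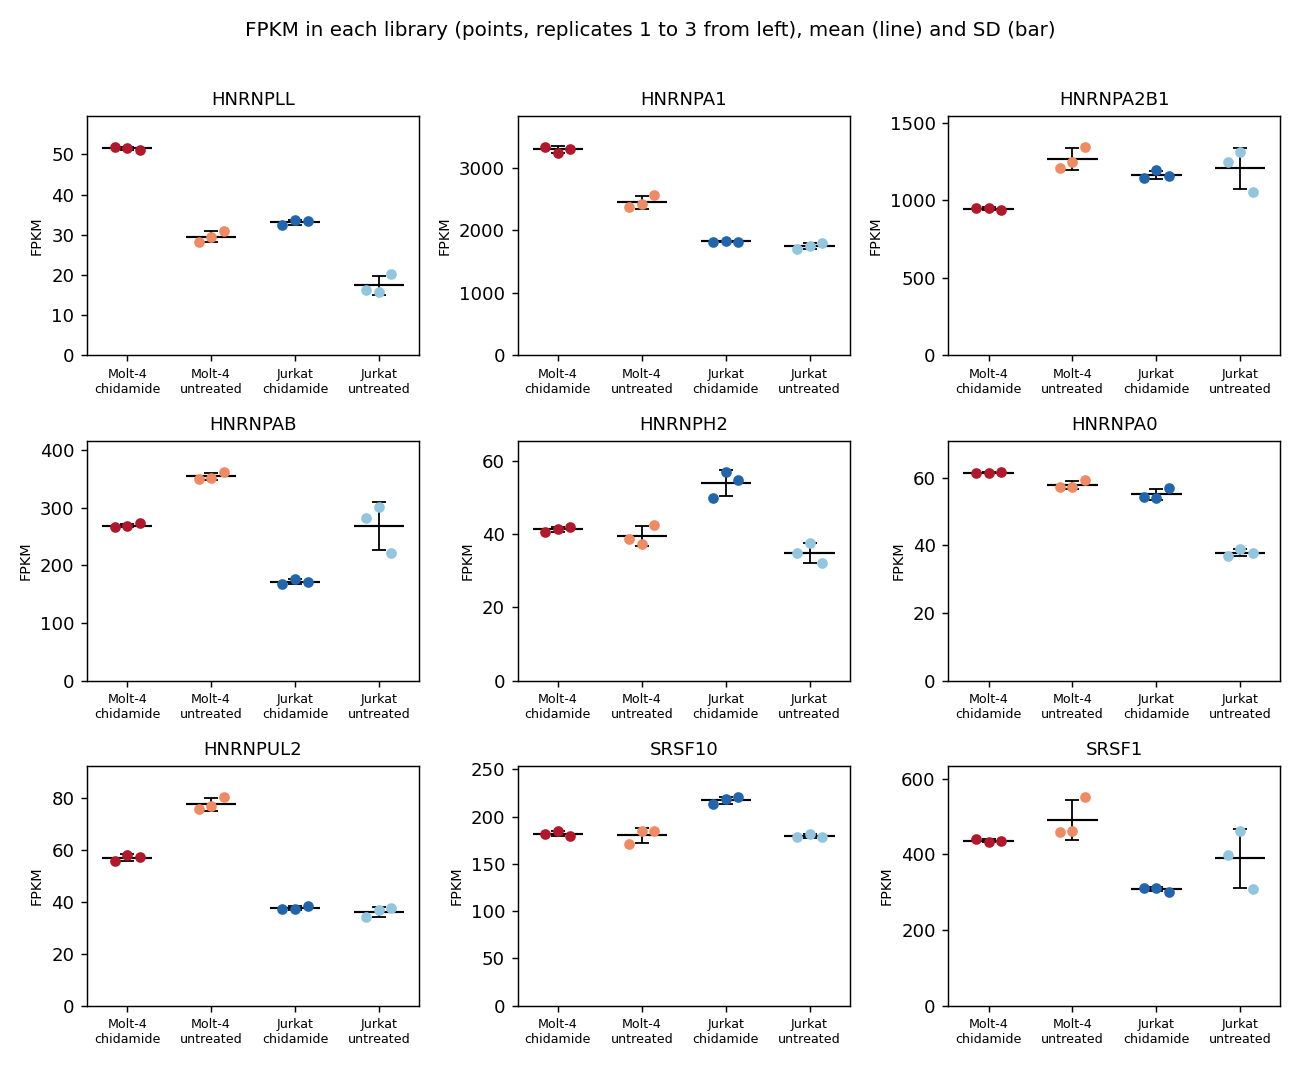
FPKM of 9 members in each library, with replicates 1 to 3 from left within a group, the mean as a line and the SD as a bar, and axes starting at 0. HNRNPLL is higher with chidamide in both lines, HNRNPA1 in Molt-4, and HNRNPH2, HNRNPA0 and SRSF10 in Jurkat, while untreated Jurkat replicate 3 is the lowest of the 3 untreated Jurkat libraries for SRSF1, HNRNPAB and HNRNPA2B1.

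Ratios between related members, computed per library after their values were seen and given as a description, show how the balance within a class stood. HNRNPA1 was 3.51, 3.40 and 3.53 times the FPKM of HNRNPA2B1 in Molt-4 with chidamide, against 1.96, 1.94 and 1.91 times untreated. In Jurkat it was 1.59, 1.54 and 1.57 times with chidamide, against 1.36, 1.34 and 1.70 times untreated. The Molt-4 groups lay far apart and the Jurkat groups overlapped through untreated replicate 3. HNRNPA1 alone made up 28.7%, 28.3% and 28.6% of the summed FPKM of the members in Molt-4 with chidamide, against 20.04%, 20.03% and 19.99% untreated. In Jurkat it made up 19.4%, 19.2% and 19.1% with chidamide, against 16.1%, 15.9% and 18.8% untreated, again with no overlap. HNRNPLL stood at 14.9%, 15.0% and 15.2% of HNRNPL in Molt-4 with chidamide, against 6.60%, 7.31% and 7.80% untreated. In Jurkat it stood at 8.26%, 8.92% and 8.66% with chidamide, against 3.65%, 3.32% and 5.24% untreated. Treated libraries were above untreated ones in both lines. HNRNPH2 was 7.41%, 7.99% and 7.79% of HNRNPH1 in Jurkat with chidamide, against 4.498%, 4.572% and 4.184% untreated. In Molt-4 it was 4.36%, 4.46% and 4.39% with chidamide, against 3.54%, 3.17% and 3.17% untreated.

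Between the untreated lines, most of the called members were higher in Molt-4. Of 30 members, 16 were higher and 2 lower in Molt-4, against 27.9% and 37.5% of all genes (65.3% in either direction). Median-of-ratios scaling gave 24 higher and 1 lower, quantile normalization 17 and 5, where all genes split into 4646 higher and 4344 lower under the first scaling and 4170 and 4837 under the other, against 3857 and 5187 as deposited. Leaving out untreated Jurkat replicate 3 gave 14 and 4 members (28.1% and 36.8% of all genes, 64.9% in either direction). The median log2 difference was 0.20 over the members and -0.075 over all genes. The groups did not overlap for 15 members with Molt-4 higher (28.7% of all genes) and for 2 with Molt-4 lower (37.9% of all genes). HNRNPUL2 had 75.7, 76.9 and 80.4 FPKM in Molt-4, against 34.15, 37.0 and 37.7 FPKM in Jurkat. It was the largest difference among members (log2 difference 1.08 ± 0.052, limma adjusted p = 2.8e-09). HNRNPLL had 28.2, 29.4 and 31.0 FPKM in Molt-4, against 16.3, 15.9 and 20.2 FPKM in Jurkat (log2 difference 0.73 ± 0.080, limma adjusted p = 5.41e-06). HNRNPH1 had 1095, 1174 and 1337 FPKM in Molt-4, against 775, 820.4 and 764 FPKM in Jurkat (log2 difference 0.61 ± 0.064, limma adjusted p = 3.9e-06). In each of these 3 genes every Molt-4 library lay above every Jurkat one. SRSF11 had 173, 178 and 195 FPKM in Molt-4, against 239, 228 and 255 FPKM in Jurkat (log2 difference -0.40 ± 0.056, limma adjusted p = 4.4e-05), and was the clearest member that was lower in Molt-4. HNRNPUL1, a relative of HNRNPU, averaged 188 ± 2.49 FPKM in Molt-4 and 201 ± 4.98 FPKM in Jurkat. That small difference was just called (log2 difference -0.098 ± 0.039, limma adjusted p = 0.0431), its call was lost under 13 of the 19 alternatives, and its sign turned under median-of-ratios scaling. SRSF1, SRSF4, SRSF6 and SRSF7 were the SRSF genes that were higher in Molt-4, with log2 differences between 0.27 and 0.39. The call of SRSF1 was lost without untreated Jurkat replicate 3 (adjusted p = 0.0577). SRSF7, at 0.39 the largest of these, was 0.19 without that library (limma adjusted p = 0.000675). Its call was lost with the compared groups alone (limma adjusted p = 0.0778). HNRNPH2, among the 16 called higher, was close to the threshold (log2 difference 0.18 ± 0.073, limma adjusted p = 0.0489). Its groups overlapped, and its call was lost under 13 of the 19 alternatives.

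Other splicing genes were counted by lists of known roles. Of 38 core spliceosome genes, 24 fell and 1 rose in Molt-4, where 24.6% of all genes fell and 35.4% rose. In Jurkat 17 fell and 4 rose, where 25.4% of all genes fell and 30.9% rose. The median log2 change of the core genes was -0.26 in Molt-4 and -0.13 in Jurkat. Without untreated Jurkat replicate 3, 20 fell and 3 rose in Jurkat (26.0% and 32.6% of all genes). This list and those below were counted under the deposited scaling only, and their split under the other scalings was not tested. SNRPD1, which encodes a ring protein of the small nuclear ribonucleoproteins, averaged 50.7 ± 2.76 FPKM with chidamide and 77.9 ± 3.66 FPKM untreated in Molt-4, and 59.6 ± 4.53 FPKM with chidamide and 81.5 ± 5.08 FPKM untreated in Jurkat. It fell in both lines (limma adjusted p = 1.13e-05 in Molt-4 and 0.000169 in Jurkat). SNRNP200, the helicase that unwinds the U4/U6 pairing, averaged 101 ± 2.69 FPKM with chidamide and 148 ± 5.85 FPKM untreated in Molt-4 (limma adjusted p = 5.49e-07). The late-step factor SLU7 was the core gene that rose in Molt-4, with 64.8 ± 4.37 FPKM with chidamide and 44.7 ± 5.11 FPKM untreated (limma adjusted p = 0.000726).

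Of 18 tested kinases, transport factors and relatives of SR proteins, 10 fell and 3 rose in Molt-4 (24.6% and 35.4% of all genes), and 8 fell and 3 rose in Jurkat (25.4% and 30.9% of all genes). SRPK1, a kinase that phosphorylates SR proteins, averaged 60.2 ± 2.97 FPKM with chidamide and 80.9 ± 7.33 FPKM untreated in Molt-4 (limma adjusted p = 0.000587). In Jurkat it averaged 42.0 ± 1.94 FPKM with chidamide and 64.3 ± 5.62 FPKM untreated (limma adjusted p = 4.06e-05), so it fell in both lines. SREK1, an SR-related regulator, fell to 56.2 ± 4.81 FPKM with chidamide, against 81.8 ± 8.97 FPKM untreated, in Molt-4 and to 35.4 ± 1.44 FPKM, against 57.2 ± 1.94 FPKM untreated, in Jurkat (limma adjusted p = 0.000131 and 2.11e-05). SRRM3, which drives neuronal microexon inclusion, had 2.40, 1.86 and 2.11 FPKM with chidamide in Molt-4 and was listed at 0 in the 3 untreated libraries. It passed the filter on low values only through treated libraries, and SRRM4 of the same list did not pass. SRRM3 is counted among the 3 rises of each line, which thus follow in part from the filter. The nonsense-mediated decay genes fell or did not pass: 7 of 10 fell in Molt-4 (24.6% of all genes) and 4 of 10 in Jurkat (25.4% of all genes). UPF1, the helicase of that pathway, averaged 52.9 ± 0.597 FPKM with chidamide and 70.6 ± 3.05 FPKM untreated in Molt-4, and 57.5 ± 0.971 FPKM with chidamide and 80.3 ± 1.29 FPKM untreated in Jurkat (limma adjusted p = 1.03e-05 and 3.38e-06).

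Of 34 other RNA-binding splicing regulators, 11 rose and 13 fell in Molt-4, where 35.4% of all genes rose and 24.6% fell. In Jurkat 14 rose and 12 fell, where 30.9% of all genes rose and 25.4% fell. Genes that passed the filter on low values only through treated libraries are among the rises, so these counts follow in part from the filter. CELF5, CELF3 and NOVA2, known from neurons, were among the largest rises and were named because they moved most. Each lay under 1 FPKM in untreated Molt-4. CELF3 passed the filter on low values only through treated libraries, and CELF5 would not have passed without them. For NOVA2 this was not checked. A low untreated level and a large rise thus follow in part from the choice, and the p-values below are a description. CELF4, ELAVL2, ELAVL3, KHDRBS2, RALYL, RBFOX1 and RBFOX3 of the same list did not pass the filter. CELF5 averaged 10.8 ± 1.38 FPKM with chidamide and 0.32 ± 0.0819 FPKM untreated in Molt-4, and 12.4 ± 0.52 FPKM with chidamide and 1.497 ± 0.915 FPKM untreated in Jurkat (limma adjusted p = 5.53e-08 and 5.83e-07). CELF3 had 7.79, 8.90 and 10.2 FPKM with chidamide in Jurkat, against 0.31, 0.35 and 0.50 FPKM untreated (limma adjusted p = 1.99e-09). NOVA2 had 1.83, 2.22 and 2.27 FPKM with chidamide in Molt-4, against 0, 0.03 and 0 FPKM untreated.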

How the data were processed

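RNA of 12 libraries was sequenced from a TruSeq library kit, per the labels' protocols. The deposited values are FPKM per gene symbol with 2 decimals, made by the authors; STAR, HTSeq, DESeq2 and the build hg19 are named in the submitters' processing notes, without versions or order. All value columns were used. Whole reads were not recovered: of 6703 low values, 29.0% came within 0.15 of a whole number of estimated steps, against 27.0% to 29.1% with 10 draws of random steps.

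Genes with at least 1 FPKM in at least 3 libraries were kept, and log2(FPKM + 1) was fitted with limma 3.58.1 in R 4.3.3 (lmFit, contrasts.fit and eBayes with trend, 1 mean per group over all 12 libraries, 8 residual degrees of freedom). Tests were two-sided, with Benjamini-Hochberg adjustment over 13840 genes. The procedure was tested on simulated data for the Jurkat comparison. It called 21 of 40 genes with a log2 change of -0.5, 28 of 40 with 0.5, and 9 of 13640 unchanged genes. Far fewer genes were changed there than were called in these data, so the shares called may differ here. Alternatives were a pseudocount of 0.1, no filter (20104 genes), median-of-ratios scaling, quantile normalization, equal totals without the 7SL RNA genes (2.25% to 10.1% of total FPKM), a fit of the compared groups, the replicate number as a block, and each library left out.

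The members, lists and tests were chosen with earlier results of these data known. Values in every library are given for SRSF1, SRSF3, HNRNPA1, HNRNPA2B1 and HNRNPC, for the 5 called members that moved most in each direction of a treatment comparison (fewer where fewer were called), and for up to 3 of each direction in the other comparisons. SRSF7 was added after its values were seen, as were the ratios between members. From each list, as many as 4 called genes that moved most could be named. Promoters came from RefSeq (GRCh38.p14). Overlaps and pseudogene names came from GENCODE v29, without coordinates. Protein sequences were not used here. A planned marker gene is not reported here.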

Additional observations from a re-analysis of the deposited data

Results flagged for a closer look

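The difference of the chidamide response between the lines (Molt-4 minus Jurkat, log2 scale, limma over all genes tested) passed an adjusted p of 0.05 for 7 members. It was -0.5515 for HNRNPH2, -0.492 for HNRNPUL2, -0.4434 for HNRNPA0, -0.3721 for HNRNPA2B1, -0.2968 for HNRNPU and -0.2587 for SRSF10. For HNRNPA1 it was 0.3688. Of all genes tested, 31.9% passed the same test. Over the 12 fits that left out 1 library, HNRNPA1 stayed between 0.344 and 0.4033 and HNRNPH2 between -0.606 and -0.4941. In these fits HNRNPU lay between -0.348 and -0.1982.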

How the results depend on the processing

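Over the 12 fits that left out 1 library, the number of members called lower in Jurkat ran between 6 and 20, that called higher in the difference of responses between 1 and 8, and that called lower between the untreated lines between 1 and 4. Of all 13840 genes, between 3186 and 3592 were called lower in Jurkat over these fits. Between 2418 and 2921 were called higher in the difference, and between 4817 and 5143 lower between the untreated lines. In Jurkat the number of members called lower was 6 under quantile normalization (3946 of all genes) and 6 under equal totals without 7SL RNA (2924 of all genes). In the difference of responses under quantile normalization, 2 members and 2261 of all genes were higher, and 8 members and 2655 of all genes were lower. Under equal totals without 7SL RNA, 10 members and 2208 of all genes were lower. Between the untreated lines, 1 member was lower under median-of-ratios scaling (4344 of all genes) and 5 were lower after quantile normalization (4837 of all genes). With the compared groups alone 1 was lower. Among the genes named by rule, the sign turned for SRSF3 in Molt-4 (0.01226 under quantile normalization, -0.08185 to 0.006007 over the left-out libraries), and in Jurkat HNRNPA2B1 (0.08038 under quantile normalization, 0.0347 without 7SL RNA, -0.1381 to 0.01903 over the left-out libraries) and SRSF3 (0.1026, 0.02879, and -0.1768 to 0.05414 likewise). HNRNPUL1 between the untreated lines was 0.01537 under median-of-ratios scaling. None of these genes passed the test on the turned side. Over all 30 members the sign turned under at least 1 alternative for 6 in Molt-4, 9 in Jurkat, 8 in the difference and 9 between the untreated lines. Of these, HNRNPM passed on the turned side in Jurkat without untreated replicate 3 (-0.15, adjusted p = 0.0114), and HNRNPA2B1 and HNRNPC did so between the untreated lines under quantile normalization. The causes were not tested.

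Same-numbered libraries of different groups showed no clear shared deviation (r between -0.086 and 0.041 over 18 pairs), and the main fit did not pair them. These values cannot show how the libraries were made or exclude a small shared effect. With the replicate block, 1 member was lower between the untreated lines (5127 of all genes). In Jurkat 4 members were then higher and 10 lower (4207 and 3473 of all genes). The pseudocount of 0.1 moved SRSF11 in Jurkat across the threshold (adjusted p = 0.0485, against 0.0503 with a pseudocount of 1) and no other member in any of the 4 comparisons. Depth is unknown, so the counting error of low genes such as HNRNPA1L2 (4.72 to 7.64 FPKM) could not be given.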
